A study of Caenorhabditis elegans with 6 samples.

Results

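The 10 molting genes described here are lin-42, mlt-8, mlt-10, mlt-11, nas-36, nas-37, noah-1, noah-2, fbn-1 and ptr-4, taken by name from 46926 genes in the deposited gene table. They have 34 of the 60000 entries in the deposited transcript table. All RNA came from whole wild-type Caenorhabditis elegans of strain N2, a laboratory strain, grown to the late L4 to young adult stage. The treated animals received 25 µM chaetocin, a toxin of fungal origin that inhibits lysine methyltransferases, and the controls received its vehicle DMSO. Both groups were kept for 5 h in NGM buffer, where they were fed heat-treated OP50, the usual bacterial food. There were 3 libraries in each group, which the labels number as biological replicates without saying whether they came from separate cultures. The p-values therefore rest on library-to-library spread, which may be technical. The comparison asks which transcripts differ after this exposure.

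Nematodes replace their cuticle at the end of each larval stage. In each molt the epidermis builds a temporary apical matrix, lays down a new cuticle beneath the old one and sheds the old one with secreted proteases. Many of the genes involved are transcribed in waves, once per larval stage, and fall to low levels in adults. LIN-42 resembles the circadian protein PERIOD and is required for the regular timing of molts. The last molt separates the L4 stage from the adult.

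With chaetocin, lin-42 was lower, and none of the other 9 molting genes passed the test. Of the 10 genes, lin-42 fell by 0.85 on the log2 scale and was the 1 gene that passed the test (limma, adjusted p = 0.0364). mlt-10 was lower in all 3 chaetocin libraries but missed the threshold (limma, adjusted p = 0.104). The other 8 genes had log2 fold changes between -0.15 and 0.11. In FPKM, most of the difference in lin-42 lay in 1 short annotated transcript. In RNA of whole animals, fewer cells of a type and less RNA per cell cannot be told apart. Across all genes tested, 8.41% passed the same test, 5.53% higher and 2.89% lower. The 10 genes had a median log2 fold change of -0.087, and all 15213 genes tested had one of -6e-04. All 10 genes passed the filter of at least 0.5 FPKM in at least 3 libraries, and none rose (limma, 0 of 10; 2 of 10 had an unadjusted p under 0.05, both lower). In the authors' deposited table, lin-42 and mlt-10 were lower and 0 of the 10 higher, beside 9.06% of its 16062 genes called in either direction.

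The values are FPKM as deposited, fragments scaled by transcript length and library size, so levels can be compared between genes. In DMSO the highest of the 10 was nas-37 with 22.2 ± 0.676 FPKM (SD, n = 3). Then came noah-2 with 16.6 ± 3.96, noah-1 with 13.5 ± 2.76, mlt-8 with 8.79 ± 2.00, lin-42 with 5.80 ± 0.691 and mlt-11 with 3.42 ± 0.593 FPKM. The lowest levels were those of mlt-10 with 2.52 ± 0.342, fbn-1 with 2.44 ± 0.316, ptr-4 with 1.497 ± 0.424 and nas-36 with 1.14 ± 0.0982 FPKM. Neighbours in this order overlapped between noah-2 and noah-1, noah-1 and mlt-8, mlt-10 and fbn-1, and ptr-4 and nas-36. The median level of the 10 in DMSO was 4.61 FPKM, below the 11 FPKM of all tested genes. Depth per library is unknown, but the authors' deposited table gives their mean normalized count over all libraries, from 107 for nas-36 to 6275 for noah-1.

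**Figure D1:**
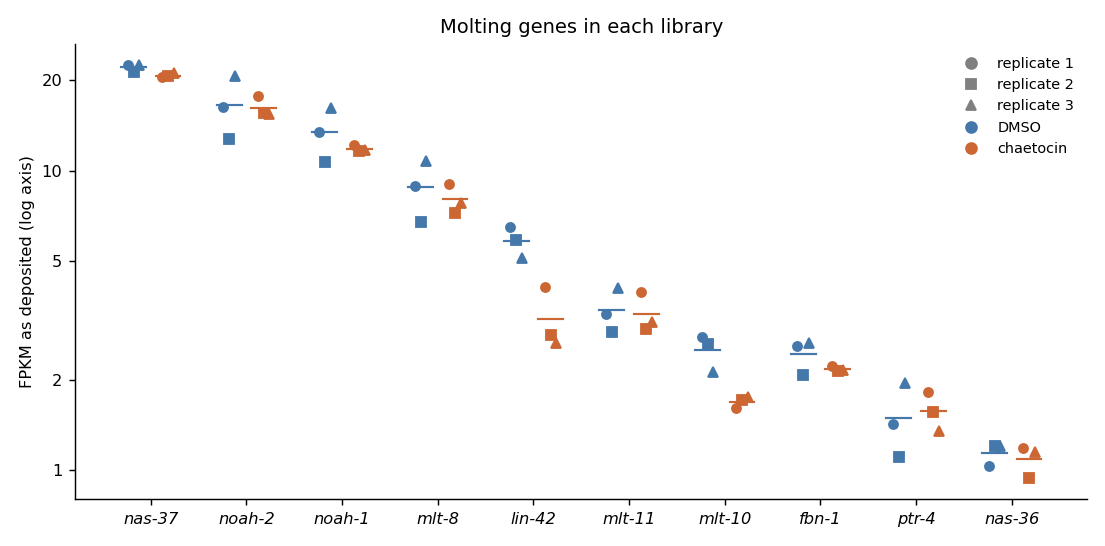
FPKM as deposited (log axis) of each of the 10 molting genes, ordered by their DMSO mean. Points are single libraries, shaped by replicate number, and lines are the group means of 3 libraries. The 3 chaetocin libraries lie wholly below the 3 DMSO libraries for lin-42, mlt-10 and nas-37, and overlap them for the other 7 genes. Over all tested genes, 14.6% lie wholly below.

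The timing gene lin-42 (WBGene00018572) lies on chromosome II from 1233236 to 1252359 on the minus strand (WBcel235) and codes for protein. Under DMSO its level was 6.47, 5.85 and 5.09 FPKM, and under chaetocin it was 4.08, 2.83 and 2.66. Every chaetocin library was below every DMSO library, which was true of 14.6% of all tested genes (27% stood wholly above or below), and chaetocin replicate 1 was the closest to the controls. In both groups replicate 1 was the highest library and replicate 3 the lowest, as in 1.71% of all tested genes, an order looked for after the values were seen. The log2 fold change was -0.85 ± 0.18 (SE) with a 95% interval from -1.28 to -0.41, or 0.556 times the DMSO level (limma). Leaving out DMSO replicate 1 or 2 or chaetocin replicate 2 or 3 lost the call (limma, adjusted p = 0.126, 0.115, 0.117 and 0.105), while the log2 fold change stayed between -0.73 and -0.84 in these fits. The authors' deposited table gives lin-42 a log2 fold change of -0.857 with an SE of 0.184 and an adjusted p of 7.76e-05.

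The annotation gives lin-42 7 transcripts, and 5 of them had values above 0. The 2 transcripts F47F6.1c.1 and F47F6.1f.1, which end before the 3′ exons of the gene, were listed at 0 in all libraries. The short transcript F47F6.1g.1 (chromosome II, 1234175 to 1234625) has 297 bases in 2 exons, of which 294 are coding, and no base of its own: all of it lies within exons of longer lin-42 transcripts. Its values were 2.42, 1.77 and 1.17 FPKM under DMSO, and 2 chaetocin libraries listed it at 0 and the third at 0.1 FPKM. The groups stood apart, and it was the 1 transcript of the 18 tested among the molting genes that passed (limma, adjusted p = 0.00913), where 4.67% of 21002 transcripts did, 3.16% higher and 1.51% lower. It reached 0.5 FPKM in the DMSO libraries alone, and a transcript that enters the test this way has to differ.

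The other lin-42 transcripts overlapped between the groups. F47F6.1a.1, which starts within the gene and has 2320 bases, stood at 0.72, 1.52 and 1.28 FPKM under DMSO and at 1.29, 1.11 and 0.57 under chaetocin. F47F6.1b.1, with 2753 bases and the same 3′ end as F47F6.1a.1, stood at 1.48, 1.24 and 1.39 and at 0.63, 0.94 and 1.32 FPKM. Among these, F47F6.1b.1 had the most negative log2 fold change, -0.50 ± 0.30 (limma, adjusted p = 0.495). F47F6.1d.1, which starts at the 5′ end of the gene, was too low to be tested, at 0.45, 0.48 and 0.8 FPKM under DMSO and 0.88, 0.36 and 0.17 under chaetocin. F47F6.1e.1 stood at 1.4, 0.84 and 0.45 and at 1.27, 0.42 and 0.5 FPKM.

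**Figure D2:**
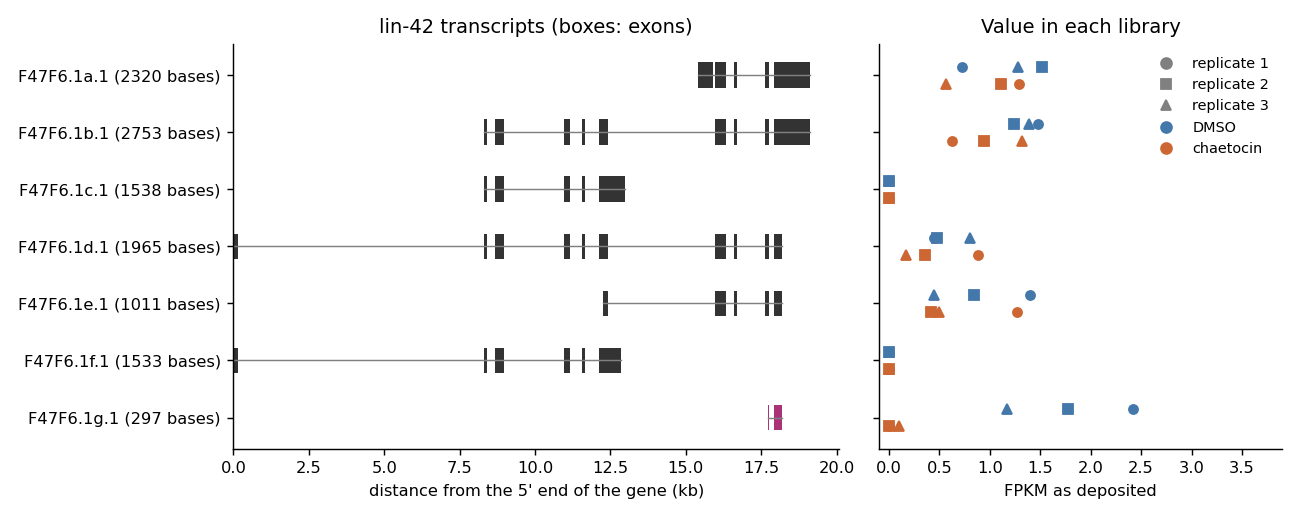
Left, the 7 annotated lin-42 transcripts with exons as boxes against the distance from the 5′ end of the gene in kb. Right, the FPKM of each transcript in each library; the 297-base transcript F47F6.1g.1 (coloured exons) is between 1.17 and 2.42 FPKM in DMSO and at most 0.1 under chaetocin, while the other expressed transcripts overlap between the groups.

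F47F6.1g.1 made up 37.4, 30.3 and 22.99% of the lin-42 FPKM in the DMSO libraries and 0, 0 and 3.76% in the chaetocin libraries. The shares did not overlap, and the exact permutation test gave the smallest p that 3 against 3 libraries allow (2-sided exact p = 0.1; adjusted over 5 transcripts, 0.5). In FPKM, the mean of this transcript differed by 1.753 between the groups, which is 67.1% of the difference of 2.613 for the whole gene. Without it, lin-42 stood at 4.05, 4.08 and 3.92 FPKM under DMSO and at 4.08, 2.83 and 2.56 under chaetocin. Chaetocin replicate 1 then equalled the highest DMSO library, and the log2 fold change was -0.35 with a 95% interval from -0.77 to 0.07 (limma, adjusted p = 0.332). The transcript was picked after its fall was seen, so leaving it out had to shrink the difference, and the lost call is no independent evidence.

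FPKM counts a fragment of a short transcript for more than a fragment of a long one. Weighting each transcript by its annotated length in kilobases turns the sum into a value roughly proportional to fragments, and F47F6.1g.1 then held 8.20, 5.68 and 3.79% of lin-42 in the DMSO libraries. Annotated lengths exceed the effective lengths that FPKM is scaled by, most so for short transcripts, and effective lengths were not used here. In units of FPKM times kilobases, lin-42 stood at 8.76, 9.26 and 9.17 under DMSO and at 7.74, 6.30 and 5.83 under chaetocin, without overlap. Its log2 fold change was -0.44 with a 95% interval from -0.69 to -0.19 and passed the test (limma, adjusted p = 0.0359), where 10.3% of all genes did, 6.39% higher and 3.91% lower. The log2 fold changes from FPKM and from length-weighted sums differed by 0.406 for lin-42. A difference of at least that size was found in 0.86% of 14768 genes, and the median difference was 0.00173.

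**Figure D3:**
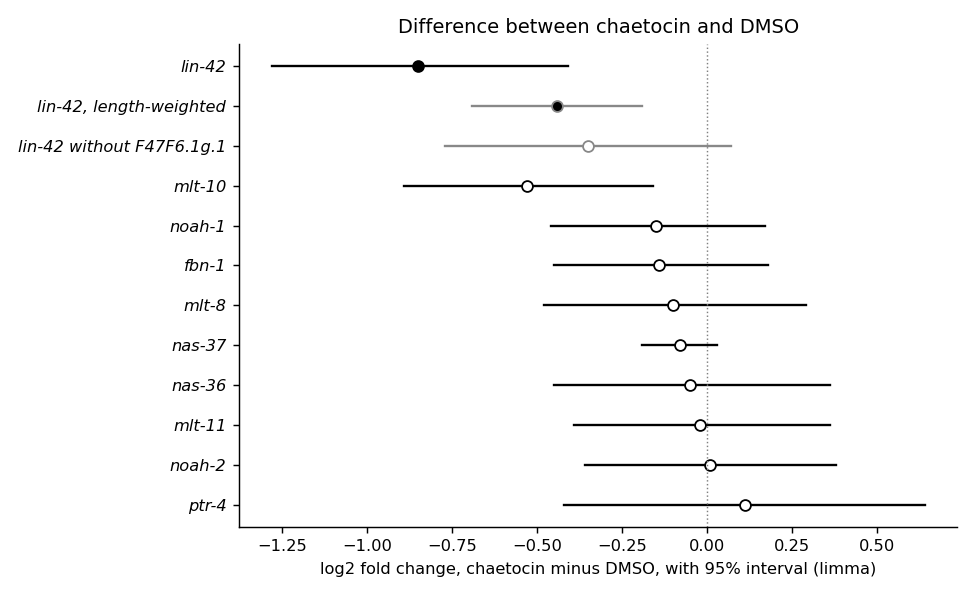
Log2 fold change of chaetocin minus DMSO (limma) of each molting gene with its 95% interval, filled where the adjusted p was under 0.05. Grey lines give lin-42 from length-weighted transcript sums (-0.44) and without F47F6.1g.1 (-0.35), beside -0.85 from the deposited gene values.

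mlt-10 (WBGene00015646, chromosome II, 546705 to 552032, plus strand) codes for a secreted protein with proline-rich repeats that is made in the epidermis and needed for molting. It was at 2.78, 2.64 and 2.13 FPKM under DMSO and at 1.61, 1.71 and 1.75 under chaetocin. All chaetocin libraries were below all DMSO libraries, as in 14.6% of all tested genes, and the chaetocin libraries lay close together. Its log2 fold change was -0.53 ± 0.15 with a 95% interval from -0.89 to -0.16 (limma, adjusted p = 0.104), and the authors' deposited table gives it -0.575 with an adjusted p of 0.000589. It passed in 2 of 15 alternatives: without DMSO replicate 3 (limma, adjusted p = 0.0454) and with length-weighted sums (0.0344). In the other fits without 1 library, its adjusted p ran from 0.188 to 0.295 (limma). mlt-10 has 1 annotated transcript of 2339 bases, so the weighting leaves its ratio between libraries as it was before scaling. The pass with length-weighted sums is therefore no separate evidence. Its exons share 16 bases with T27A1.3, at 0.56 to 0.9 FPKM, and 109 bases with lips-7, at 0.03 to 0.47 FPKM.

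mlt-10 has named paralogs, mltn-1 to mltn-13, of which 12 had a row in the gene table and 3 passed the filter. Of these, mltn-10 fell from 0.8, 0.97 and 1.17 to 0.34, 0.25 and 0.27 FPKM (limma log2 fold change -1.46, adjusted p = 0.0108), and it entered the test through its DMSO libraries alone. Its log2 fold change was -0.61 with a pseudocount of 1 FPKM. The authors' deposited table calls mltn-10 lower (adjusted p = 3.11e-07). The other tested paralogs did not pass: mltn-1 had 5.64 ± 0.245 and 5.36 ± 0.3604 FPKM and mltn-9 had 0.727 ± 0.115 and 0.677 ± 0.165 (n = 3 each). Paralogs can share fragments, so single levels are uncertain.

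mlt-8 and mlt-11 are named for the molting defect seen when they are lost, and mlt-11 codes for a protein with Kunitz-type protease inhibitor domains. mlt-8 (WBGene00021095, chromosome II, 569210 to 572110) lies 17177 bases from mlt-10. It stood at 8.86, 6.75 and 10.8 FPKM under DMSO and at 9.05, 7.20 and 7.82 under chaetocin. The chaetocin libraries lay inside the DMSO range, with a log2 fold change of -0.10 (95% interval -0.48 to 0.29; limma, adjusted p = 0.803). mlt-11 (WBGene00012186, chromosome V, 20667205 to 20678537) stood at 3.31, 2.89 and 4.06 FPKM under DMSO and at 3.92, 2.96 and 3.12 under chaetocin. Here too the groups overlapped (log2 fold change -0.02; limma, adjusted p = 0.966). Of its 8 annotated transcripts, W01F3.3a.1 held the most, at 1.78 to 2.28 FPKM under DMSO and 1.91 to 2.48 under chaetocin. W01F3.3f.1 was at 1.11, 0.91 and 1.27 FPKM under DMSO and at 1.11, 0.83 and 0.62 under chaetocin, and did not pass (limma, adjusted p = 0.643).

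nas-36 and nas-37 code for astacin-type metalloproteases that act in shedding the old cuticle. nas-37 (WBGene00003553, chromosome X, 9944844 to 9949063) stood at 22.5, 21.4 and 22.6 FPKM under DMSO and at 20.5, 20.6 and 21.1 under chaetocin. All chaetocin libraries were lower, as in 14.6% of all tested genes. The difference was small: the log2 fold change was -0.08 ± 0.05, with a 95% interval of 0.879 to 1.02 times the DMSO level (limma, adjusted p = 0.408). Its transcript C17G1.6b.1 carried nearly all of its FPKM, at 20.3 to 21.5 FPKM under DMSO and 19.1 to 19.8 under chaetocin, beside at most 1.55 FPKM for C17G1.6a.1. The 3′ end of nas-37 shares 32 bases with C17G1.5 on the opposite strand, at 3.44 to 4.58 FPKM. nas-36 (WBGene00003552, chromosome I, 7527224 to 7531715) was the lowest of the set, at 1.03, 1.2 and 1.2 FPKM under DMSO and at 1.19, 0.94 and 1.15 under chaetocin (log2 fold change -0.05; limma, adjusted p = 0.91).

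noah-1, noah-2 and fbn-1 code for proteins of the apical extracellular matrix: the NOAH proteins carry a zona pellucida domain, and FBN-1 is related to fibrillin. noah-1 (WBGene00016422, chromosome I, 5874416 to 5878958) stood at 13.5, 10.7 and 16.2 FPKM under DMSO and at 12.2, 11.6 and 11.7 under chaetocin. The chaetocin libraries all lay within the DMSO range, and their SD of 0.288 compared with 2.76 in DMSO (log2 fold change -0.15, 95% interval -0.46 to 0.17; limma, adjusted p = 0.604). noah-2 (WBGene00009926, chromosome IV, 14091254 to 14096626) stood at 16.3, 12.8 and 20.7 FPKM under DMSO and at 17.7, 15.5 and 15.4 under chaetocin. These too fell inside the DMSO range (log2 fold change 0.01, 95% interval -0.36 to 0.38; limma, adjusted p = 0.984). fbn-1 (WBGene00022816, chromosome III, 7625386 to 7641078) stood at 2.60, 2.08 and 2.65 FPKM under DMSO and at 2.22, 2.15 and 2.16 under chaetocin (log2 fold change -0.14; limma, adjusted p = 0.637). Its end overlaps upp-1 on the opposite strand by 45 bases, a gene at 103.83 to 113 FPKM. noah-1 has 3 annotated transcripts and fbn-1 has 9, and none of those tested passed (limma; adjusted p from 0.756 to 0.915).

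ptr-4 (WBGene00004219, chromosome X, 6060758 to 6065986) codes for a patched-related membrane protein of the epidermis. It stood at 1.43, 1.11 and 1.95 FPKM under DMSO and at 1.82, 1.56 and 1.35 under chaetocin. The groups overlapped, and its log2 fold change of 0.11 had the widest 95% interval of the 8 genes with small differences, from 0.745 to 1.56 times the DMSO level (limma, adjusted p = 0.835). Over these 8 genes the 95% intervals reached from -0.48 to 0.64 on the log2 scale, so a change of 2-fold in either direction lay outside them. In the 120 values of these genes under the alternative settings, 0 passed (lowest adjusted p = 0.139).

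Within DMSO, most of the molting genes shared an order of libraries, a pattern looked for after their values were seen. In 7 of 10 genes (mlt-8, mlt-11, nas-37, noah-1, noah-2, fbn-1 and ptr-4), DMSO replicate 2 was the lowest and DMSO replicate 3 the highest library. The same order was found in 23% of all tested genes. The ratio of replicate 3 to replicate 2 ran from 1.06 for nas-37 through 1.52 for noah-1 and 1.62 for noah-2 to 1.76 for ptr-4. In lin-42 and mlt-10 replicate 3 was instead the lowest DMSO library, at 0.87 and 0.807 times replicate 2. Among 17 tested genes of the apical matrix and precuticle list, 10 had the order shared by the 7, with a median ratio of replicate 3 to replicate 2 of 1.40, against 1.03 over all genes. That median ratio was 1.06 for the transcription factors, 1 for the heterochronic genes, 1.06 for the epidermal endocytosis, signalling and lipid genes and 0.96 for the proteases and inhibitors. It was 1.09 for the cross-linking genes, 1.2 for the mlt-10 paralogs, 1.01 for the larval and L4 collagens and 0.854 for the adult stage markers (adult collagens such as col-19 and yolk protein genes). That order was found in 7 of 19 epidermal endocytosis, signalling and lipid genes and 6 of 14 larval and L4 collagens. It was found in 3 each of 15 transcription factors, 14 heterochronic genes, 11 proteases and inhibitors and 10 cross-linking genes. Of 3 mlt-10 paralogs 1 had it, and of 9 adult stage markers 1. The collagens ran both ways: from replicate 2 to 3, dpy-7 went from 4.94 to 10.27 FPKM and dpy-5 from 7.83 to 0.91. The DMSO libraries varied more than the chaetocin libraries in 8 of the 10 genes (SD), against 52% of all tested genes. The part of these markers in the order was not tested.

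**Figure D4:**
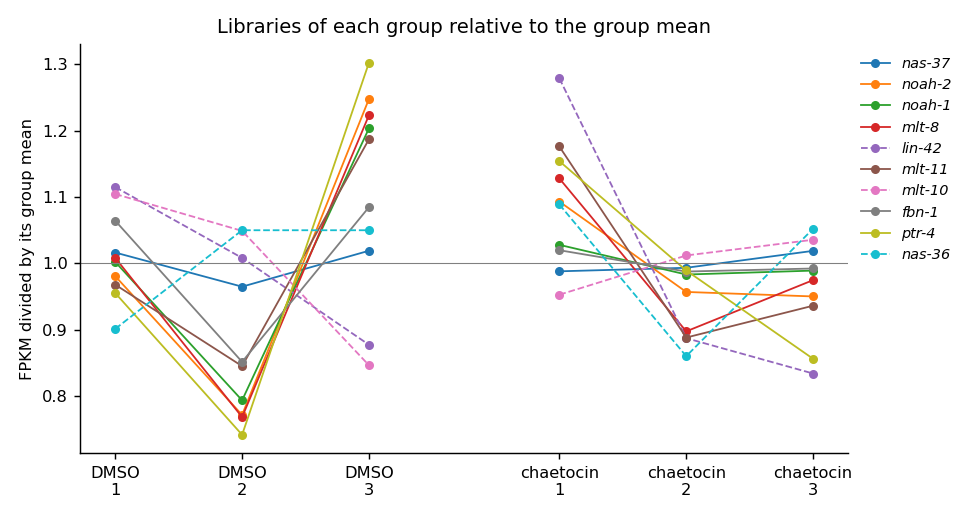
FPKM of each molting gene divided by the mean of its own group, for each library. Lines join the libraries of 1 gene within a group and imply no order; dashed lines mark lin-42, mlt-10 and nas-36, the 3 genes that do not have DMSO replicate 2 lowest and DMSO replicate 3 highest.

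Of 89 tested genes from 7 further lists of the molting pathway, 1 was higher and 5 lower (limma), where 5.53% and 2.89% of all genes were. The lower genes include mltn-10, which entered the test through its DMSO libraries alone, and ptc-3 and cut-2, whose calls depended on single libraries. The median log2 fold change was -0.098 for the transcription factors, -0.082 for the heterochronic genes, -0.137 for the epidermal endocytosis, signalling and lipid genes and -0.129 for the apical matrix genes. It was -0.112 for the proteases and inhibitors, -0.031 for the cross-linking genes, -0.089 for the mlt-10 paralogs and -0.295 for the larval and L4 collagens. Of 15 transcription factors 0 passed (limma; 2 at unadjusted p under 0.05), and peb-1 was lower in the authors' deposited table. Among them nhr-23, a nuclear receptor that drives molting gene expression, had 27.6 ± 1.26 and 26.1 ± 0.630 FPKM under DMSO and chaetocin (limma, adjusted p = 0.577). myrf-2, a membrane-bound transcription factor gene, had 17.95 ± 0.537 and 16.8 ± 0.525 FPKM (limma, adjusted p = 0.477). Of 14 heterochronic and lin-42 partner genes, which set the timing of larval stages, 0 passed (limma; 1 at unadjusted p under 0.05; 0 in the authors' deposited table). kin-19, a casein kinase gene, had 252 ± 5.99 and 241 ± 5.02 FPKM, and lin-41 had 89.3 ± 9.12 and 78.5 ± 4.44. kin-20, a casein kinase gene that works with lin-42 and is named here for that role after its values were seen, had 18.9 ± 0.170 and 16.9 ± 1.57 FPKM (limma, adjusted p = 0.31). lin-41 passed without DMSO replicate 3 (log2 fold change -0.27; limma, adjusted p = 0.0182).

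Among 19 epidermal endocytosis, signalling and lipid genes, let-767, a lipid synthesis gene, rose 1.12-fold and ptc-3, a patched gene, fell. Over all tested genes, 5.53% were called higher and 2.89% lower (limma). let-767 had 192 ± 2.48 and 212 ± 6.13 FPKM (limma, adjusted p = 0.016), and ptc-3 had 8.02 ± 0.222 and 6.33 ± 0.0866 (limma, adjusted p = 0.0364). The ptc-3 call was lost without any 1 of the 6 libraries (adjusted p from 0.0636 to 0.146), and that of let-767 without DMSO replicate 2 or any chaetocin library (up to 0.0713). The authors' deposited table calls neither gene (adjusted p = 0.0565 for let-767 and 0.0668 for ptc-3). Of 17 apical matrix and precuticle genes the 1 that fell was cut-2, a cuticlin gene, from 13.6 ± 4.39 to 6.17 ± 1.10 FPKM (limma log2 fold change -1.08, adjusted p = 0.0344). That call was lost without DMSO replicate 3 or any chaetocin library (up to 0.11). The authors' deposited table calls cut-2 lower (adjusted p = 0.0185).

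Of 11 cuticle protease and inhibitor genes, the cathepsin genes cpl-1 and cpz-1 fell, where 2.89% of all tested genes were called lower (limma). cpl-1 went from 1032 ± 22.4 to 690 ± 30.2 FPKM (limma, adjusted p = 0.000268) and cpz-1 from 338 ± 2.00 to 287 ± 9.22 (limma, adjusted p = 0.00476). The authors' deposited table calls 3 of 13 genes of this list lower. Of 10 cross-linking and collagen processing genes 0 passed (limma; 1 at unadjusted p under 0.05; 0 in the authors' deposited table). Over all genes, 8.41% passed the limma test and 9.06% were called in the authors' deposited table, so a count of 0 in a list this small says little. The disulfide isomerase gene pdi-2 had 256 ± 17.7 and 248 ± 5.05 FPKM, and dpy-11, a thioredoxin-like gene, had 101 ± 5.03 and 98.05 ± 3.92. Of 14 larval and L4 cuticle collagens, sqt-1 fell (log2 fold change -2.58; limma, adjusted p = 0.00752), having entered the test through its DMSO libraries alone. Those stood at 2.58, 2.68 and 1.44 FPKM and the chaetocin libraries at 0.48, 0.15 and 0.26. Its log2 fold change was -1.30 with a pseudocount of 1 FPKM. The authors' deposited table gives sqt-1 an adjusted p of 0.217 and calls 0 of the 17 collagens listed.

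**Figure D5:**
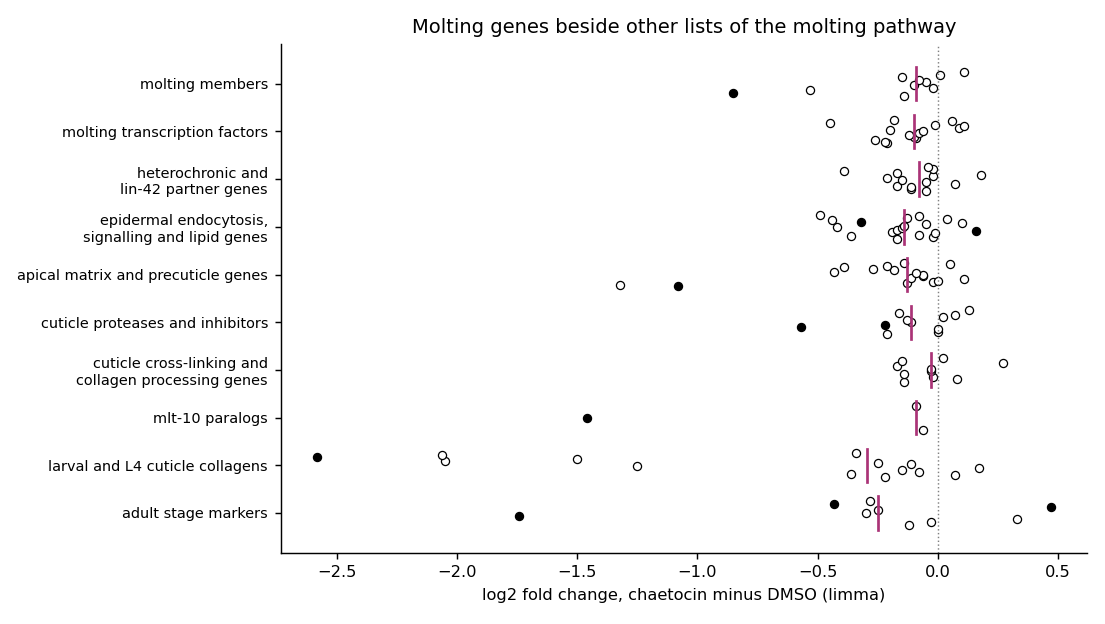
Log2 fold change of chaetocin minus DMSO (limma) for the molting genes, 7 further lists of the pathway, cuticle collagens and adult stage markers; each point is a tested gene, filled where the adjusted p was under 0.05, and vertical bars are list medians. lin-42 is the 1 filled point among the molting genes, and the median of that list is -0.087.

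Adult stage markers moved in both directions, with 1 of 9 higher and 2 lower (limma), where 5.53% and 2.89% of all genes were. vit-4 went from 249 ± 29.4 to 341 ± 16.5 FPKM, vit-1 from 115.5 ± 12.8 to 33.9 ± 1.33 and vit-5 from 2525 ± 269 to 1844 ± 76.2, all yolk protein genes. The yolk protein genes vit-2, vit-3 and vit-6 were lower in all 3 chaetocin libraries, at 0.804, 0.826 and 0.813 times the DMSO mean. They did not pass (limma, adjusted p = 0.1, 0.209 and 0.121). The authors' deposited table calls vit-2 lower (adjusted p = 0.0416) but not vit-3 or vit-6. It also calls vit-4 higher (adjusted p = 0.00017) and vit-5 lower (0.000945). As with the mlt-10 paralogs, genes of this family can share fragments, so single levels and opposite directions within it are uncertain. The vit-4 call was lost without DMSO replicate 2 or any chaetocin library (adjusted p up to 0.104) and that of vit-5 without any library but DMSO replicate 3 (up to 0.0981). Among 7 tested epidermis markers, the junction gene ajm-1 rose (29.05 ± 1.12 to 35.03 ± 1.197 FPKM; limma, adjusted p = 0.0113; 0.0551 without chaetocin replicate 3), and the 8 markers summed to 150 to 162 FPKM under DMSO and 155 to 169 under chaetocin. The authors' deposited table calls ajm-1 higher (adjusted p = 0.0263). Beside ajm-1, the cuticle collagen gene col-12 had a positive log2 fold change (0.54; limma, adjusted p = 0.12). The other 5 tested epidermis markers had negative ones, from -0.04 for lin-26 to -2.05 for rol-6 (limma, adjusted p = 0.0849), and the list median was -0.077. Of 5 intestine markers, pho-1, act-5, ifb-2 and ges-1 rose (limma), and the list summed to 227 to 248 FPKM under DMSO and 464 to 488 under chaetocin. The actin gene act-5 alone went from a mean of 61.1 to 243 FPKM. The intestinal transcription factor gene elt-2 did not pass (limma, adjusted p = 0.438), with 11.21, 11.06 and 11.12 FPKM under DMSO and 10.38, 10.35 and 10.25 under chaetocin, all lower. Of 17 muscle, neuron and germline markers 0 passed (limma; 2 at unadjusted p under 0.05; 0 in the authors' deposited table). The part of these markers in the lin-42 result was not tested.

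The 5 genes whose profile over the 6 libraries was most like that of lin-42, among 13650 genes with a mean of at least 1 FPKM, were W09C2.7, fipr-3, ugt-6, txt-4 and R102.6. Likeness was the root mean square difference of log2 values centred on each gene's mean, which ran from 0.11 for W09C2.7 to 0.152 for R102.6. fipr-3 stood at 6.3, 5.41 and 5.97 FPKM under DMSO and at 4.14, 2.77 and 3.01 under chaetocin. txt-4 stood at 15.8, 17.2 and 12.2 and at 9.26, 7.86 and 7.94 FPKM. Both passed the test (limma, adjusted p = 0.0217 for fipr-3 and 0.0168 for txt-4). W09C2.7, ugt-6 and R102.6 did not (limma, adjusted p = 0.151, 0.0918 and 0.0603). None of the other 9 molting genes was among the 5. Genes picked for likeness to lin-42 in these same libraries have to be lower with chaetocin. Their calls are therefore no independent evidence, and shared regulation was not tested.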

How the data were processed

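The gene and transcript tables hold FPKM, which the authors deposited with 1 column per library. Per the submitters' processing notes, RSEM 1.3.1, STAR 2.7.9a, Trimmomatic 0.36, FastQC 0.11.4 and MultiQC were used with build WBcel235; the annotation release and strand setting are not given in the sources used here. Per the labels' protocols, a SMARTer kit served for library preparation. RSEM divides fragments between overlapping transcripts by estimation. A further table deposited by the authors gives log2 fold changes of DMSO over chaetocin (sign turned here), their SE on the log2 scale, a p-value read as adjusted, and a mean normalized count, a signal per gene over all libraries; its software is not given. Its values were read as such and not retested. All 46926 gene and 60000 transcript identifiers matched the Ensembl WBcel235 annotation, the source of positions and lengths. No sequences are printed, since none were used here.

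Features that reached 0.5 FPKM in 3 or more libraries were tested as log2(FPKM + 0.1), which understates the change of low genes, with limma 3.58.1 (R 4.3.3). Scaling between libraries used trimmed means of log ratios without weights (30% of ratios and 5% of means trimmed at each end; factors 0.9759 to 1.03). Fits used variance moderation with a trend over the whole table, and 2-sided p-values were adjusted by the Benjamini-Hochberg method at 0.05. The length-weighted sums (FPKM times kilobases) took the same filter and pseudocount. The fits were also run on simulated data with independent noise for each gene. Those data held no library pattern shared between genes, so they cannot show how the fits handle one. Depth per library is unknown.

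Members, lists and tests were chosen with earlier results of these data known. Named genes are the members, up to 4 passing genes by adjusted p per further list or, where none passed, the 2 with the highest mean, and the 5 genes most like lin-42. Outside that rule, peb-1, kin-20, mltn-1, mltn-9, col-12, lin-26, elt-2, rol-6, sqt-2, bli-2, ptr-18, dpy-5, dpy-13 and bli-6 are named after their values were seen. So are col-19, dpy-7, rol-8, mlt-2, cut-4, cut-5, vit-2, vit-3 and vit-6. Muscle, neuron and germline markers are given as counts. Alternatives were other pseudocounts, filters and scalings, no variance trend, a replicate block and leaving out each library.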

Additional observations from a re-analysis of the deposited data

How the results depend on the processing

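The count of molting genes called lower was 1. It was 0 with no filter, with no variance trend and without F47F6.1g.1, and 2 with length-weighted sums; without 1 library it ran from 0 to 2. The number called higher was 0 under every alternative run. lin-42 kept its direction in all 16 alternatives and lost its call in 7, among them no filter (adjusted p = 0.0562) and no variance trend (0.0615). The median log2 fold change of the 10 genes ran from -0.204 without DMSO replicate 2 to -0.027 without DMSO replicate 3. Over all genes, the number called higher without 1 library ran from 540 to 835 (841 with all 6) and the number called lower from 277 to 510 (439). Length-weighted sums and the omission of F47F6.1g.1 were chosen after seeing the data.

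With the replicate number as a block, 255 genes were called lower and 0 of the tested transcripts of molting genes, F47F6.1g.1 included (adjusted p = 0.0874); lin-42 stayed called (0.0259), and let-767, ptc-3, mltn-10, vit-4, vit-5 and ajm-1 did not (0.0616 to 0.143). Same-numbered libraries correlated at 0.113, 0.1 and -0.0425 in their deviations from the group means over 13651 genes, so the numbers were not taken to pair the libraries in the main fit. Those correlations cover all of these genes, while lin-42 and some collagens, such as dpy-5, had the same order of replicates in both groups. Pairing within the molting and cuticle genes alone was not tested. The numbers used are the replicate numbers of the labels. The deposited columns instead number the DMSO libraries 1, 3 and 4 and the chaetocin libraries 1, 2 and 3. By the column numbers, the libraries numbered 1 correlated at 0.113 and those numbered 3 at -0.0356. Without 1 library, the number of called transcripts of molting genes ran from 0 to 1. F47F6.1g.1 could not be tested without a DMSO library, since it was then above the filter in fewer than 3 libraries. It had a log2 fold change of -1.41 with a pseudocount of 1 FPKM, against -3.84 with 0.1 FPKM.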

Other observations

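Some larval and L4 cuticle collagens, named here after their values were seen, varied widely between the libraries of a group. dpy-5 stood at 9.95, 7.83 and 0.91 FPKM under DMSO and at 10.6, 3.55 and 0.05 under chaetocin. dpy-13 stood at 11.2, 7.35 and 1.00 and at 11.8, 2.98 and 1.06 FPKM, and bli-6 at 10.6, 7.96 and 2.38 and at 13.4, 3.85 and 2.34. In these 3 collagens the libraries of a group differed by far more than the group means, and none passed the limma test. In each of them replicate 1 was the highest and replicate 3 the lowest library in both groups. Among the listed genes, lin-42, sqt-2, rol-8, mlt-2, cut-4 and cut-5 had this order too. It was found in 1 of the 10 molting genes and in 1.71% of 15213 tested genes. The part of this order in the lin-42 result was not tested.

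Some other genes of the larval and L4 collagen list had lower chaetocin than DMSO libraries without overlap and did not pass the limma test. They too are named after their values were seen. All chaetocin libraries were lower in 14.6% of all tested genes, and other listed collagens, such as dpy-7, overlapped between the groups. rol-6 stood at 2.24, 2.25 and 0.95 FPKM under DMSO and at 0.82, 0.26 and 0.14 under chaetocin, and sqt-2 at 2.84, 2.78 and 0.88 and at 0.63, 0.43 and 0.19. bli-2, a collagen gene of the adult cuticle, did not reach the filter: its level was 0.68, 0.48 and 1.17 FPKM under DMSO and 0, 0.06 and 0.12 under chaetocin. ptr-18, a patched-related gene, did not reach it either, with 0.87, 0.61 and 0.47 FPKM under DMSO and 0.31, 0.31 and 0.29 under chaetocin, and is called lower in the authors' deposited table.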
